A study of Mus musculus with 6 samples.

Results

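Nodal signalling was followed through 7 genes in mouse stem cells and neural progenitors: the ligands Nodal and Gdf3, the co-receptor Tdgf1, the secreted antagonists Lefty1 and Lefty2, and the effectors Foxh1 and Smad7. They were taken by name as pathway members, and all 7 were found among the 37620 genes of the count tables. All 7 passed the filter on low counts. That filter keeps a gene if its counts reach the minimum in 1 group alone, so passing it says nothing about the other groups.

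Nodal is a secreted ligand of the TGF-beta superfamily that binds activin receptors together with an EGF-CFC co-receptor such as Tdgf1 (Cripto). The receptors phosphorylate Smad2 and Smad3, which join Smad4 and act on DNA with partners such as Foxh1. Nodal and the Lefty genes are themselves targets of the pathway, so that signalling feeds its own ligand and its own inhibitors, and in the early embryo this loop sustains the epiblast and sets up the primitive streak.

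The groups were neural progenitor cells (NPC) grown in culture from the J1 embryonic stem cell line, wild type; cells labelled Phc1-KO, of genotype Phc1-/-, derived from the same line; and wild-type J1 embryonic stem cells (ESC). Each group had 2 libraries, called biological replicates in the labels, of ribosome-depleted total RNA. The labels have the stem cells kept with LIF and serum on inactivated mouse embryonic fibroblast feeders and depleted of feeders before use; no clone number or deleted part of Phc1 is given. Phc1 encodes a Polyhomeotic subunit of Polycomb repressive complex 1, and the comparisons ask how RNA levels in NPC and in the Phc1-KO cells differ from wild-type ESC.

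The libraries held 15226214 to 21893821 reads in genes. Title and cell type entry disagree for the Phc1-KO libraries, naming ESC in one and NPC in the other, so they were set against both. The summed level of 8 pluripotency markers was 90.8 to 117 CPM (counts scaled to the library's total) in NPC, 1778 to 2016 CPM in Phc1-KO and 2274 to 2277 CPM in ESC. That sum places the Phc1-KO libraries nearer ESC. Among the 8, Tfcp2l1 and Nanog were lower in Phc1-KO than in ESC, with log2 fold changes of -1.76 and -0.83 (edgeR adjusted p = 0.00739 and 0.0245). The other 6 did not pass. The sum of 7 neural progenitor markers was 3456 and 1563 CPM in NPC and 183 to 203 CPM in Phc1-KO, against 208 to 218 CPM in ESC. Of these, Pax6 went the other way, at 21.1 ± 0.508 CPM in Phc1-KO against 4.56 ± 0.172 CPM in ESC (SD, n = 2 each; edgeR adjusted p = 0.00327), and did not pass in Phc1-KO against NPC, where it was at 18.96 ± 2.85 CPM. Phc1 itself read 326.3 and 267.5 CPM in Phc1-KO, against 459.7 and 460.5 CPM in ESC, so the libraries labelled Phc1-KO still held RNA counted to the gene. Its log2 fold change there was -0.63 (SE 0.15, edgeR adjusted p = 0.0412). The wild-type NPC libraries held the least, at 40.8 and 34.6 CPM. Across genes, the coefficient of variation beyond counting noise was 27.5% in the NPC pair and 18.1% in the Phc1-KO pair, against 1.98% in the ESC pair, and calls against ESC were also made with that pair counted as 1 library.

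Positions are those of GENCODE M1 on mm9. Nodal (ENSMUSG00000037171) lies on chromosome 10, 60880720 to 60888086, plus strand. Gdf3 (ENSMUSG00000030117) lies on chromosome 6, 122555421 to 122560105, minus strand. Tdgf1 (ENSMUSG00000032494) lies on chromosome 9, 110842114 to 110848662, minus strand. The antagonists are neighbours on the plus strand of chromosome 1, Lefty2 (ENSMUSG00000066652) at 182823239 to 182829234 and Lefty1 (ENSMUSG00000038793) at 182865153 to 182868531, separated by 35919 bases. Foxh1 (ENSMUSG00000033837) lies on chromosome 15, 76498714 to 76500378, minus strand, and Smad7 (ENSMUSG00000025880) on chromosome 18, 75527183 to 75555589, plus strand. No other annotated gene overlapped any of the 7, so no annotated neighbour shares their exons.

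Reads of 50 bases that align to several places were tallied apart from genes, and this touches 3 members most. Of the 1562 windows of 50 bases inside Lefty1 exons, 303 occur unchanged in Lefty2, and 80.6% of Lefty1 windows and 84.6% of Lefty2 windows were found once in the mm9 genome. For Tdgf1 the share was 75.8%, the other windows having a second copy. It was 97.2% for Gdf3 and 100% for Nodal, Foxh1 and Smad7. Levels of Lefty1, Lefty2 and Tdgf1 per length are thus understated, while a fold change between groups compares the same countable bases.

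Upstream sequence is shown for the ligand Nodal and the co-receptor Tdgf1, which had few counts in NPC and did not pass the test in Phc1-KO. RefSeq's table of promoters (GRCm38.p6, a later build than the counts) matched these 2 of the 7 members; Gdf3, Lefty1, Lefty2, Foxh1 and Smad7 were not matched. Each run gives the 250 bases before the gene start, 5′ to 3′ on the gene's own strand, with matches to 4 searched motifs in capitals. The Nodal window is chr10:61417722-61417971 and the Tdgf1 window is chr9:110946159-110946408, on the minus strand.
Nodal: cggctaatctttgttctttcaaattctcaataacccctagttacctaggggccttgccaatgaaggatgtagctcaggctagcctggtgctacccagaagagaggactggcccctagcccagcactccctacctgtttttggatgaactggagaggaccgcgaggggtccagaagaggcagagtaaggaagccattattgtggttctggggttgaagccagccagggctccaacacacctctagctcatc
Tdgf1: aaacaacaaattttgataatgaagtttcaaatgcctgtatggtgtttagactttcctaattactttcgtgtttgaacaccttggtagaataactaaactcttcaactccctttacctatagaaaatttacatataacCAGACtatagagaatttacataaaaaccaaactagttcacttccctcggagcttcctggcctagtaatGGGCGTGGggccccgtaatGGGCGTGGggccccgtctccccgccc

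The motifs were a Foxh1 motif (AATCCACA), the short Smad motif (CAGAC), the octamer of Oct factors (ATGCAAAT) and a Klf motif (GGGCGTGG), each on both strands, and the matches did not overlap one another. They occur in 0.718%, 42.2%, 1.60% and 4.79% of the 32851 windows of the table, in that order. The Tdgf1 window held CAGAC at bases 113 to 109 before the start and GGGCGTGG at bases 45 to 38 and 26 to 19. The Nodal window held none of the 4, which says only that these letters are not in those bases.

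In NPC all 7 members fell. Against ESC, fitted levels were lower by 11.2-fold for Smad7 and by 143-fold or more for the others, with a median log2 fold change of -8.29 where the median over all genes tested was -0.01. By edgeR's quasi-likelihood test with Benjamini-Hochberg adjustment, a gene passes at an adjusted p under 0.05, and 61.3% of the 17489 genes tested passed, 30.9% lower in NPC and 30.4% higher. Pathway members were chosen with earlier results of these data known, so the count describes them and is not a test of the list. In bulk RNA, fewer cells of a type and less RNA per cell cannot be told apart.

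Among the ligands, Nodal had 3 and 5 counts in the NPC libraries, or 0.197 and 0.325 CPM, against 52.1 and 47.9 CPM in ESC. Its log2 fold change was -7.54 (SE 0.25, edgeR adjusted p = 6.14e-06). Gdf3, which binds the same co-receptor and can act as a Nodal-like ligand in the mouse embryo, had 2 and 0 counts in NPC, against 64.1 and 68.5 CPM in ESC. With so few counts its size is best read from the counts themselves: the ratio of ESC over NPC was 1010, with a 95% counting interval of 281 to 8380. Neither ligand thus had more than 5 counts in an NPC library.

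The co-receptor Tdgf1 was the most abundant member in ESC per kilobase of exon. It read 0.592 and 0.390 CPM in NPC, against 512 and 520.2 CPM in ESC, a log2 fold change of -10.02 (SE 0.28, edgeR adjusted p = 5.05e-06).

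Of the antagonists, Lefty1 read 0.855 and 0.974 CPM in NPC, against 134.1 and 129.2 CPM in ESC, a log2 fold change of -7.16 (SE 0.26, edgeR adjusted p = 6.34e-06). Lefty2 read 0.395 and 0.130 CPM in NPC, against 142.2 and 142.9 CPM in ESC, and changed by -9.05 (SE 0.32, edgeR adjusted p = 6.34e-06). The Lefty2 value was -10.02 without NPC 1 and -8.47 without NPC 2. Both antagonists were close to 0 in NPC, with 28 counts of Lefty1 and 8 of Lefty2 over the pair of libraries. At those counts the order of the antagonists within NPC was not read.

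Foxh1, the forkhead partner of the Smads, had 0 and 2 counts in NPC, against 23.3 and 22.1 CPM in ESC; the ratio of ESC over NPC was 347, with a 95% counting interval of 95.8 to 2870. Smad7, an inhibitory Smad that acts on the TGF-beta, activin and BMP branches alike, stood apart. It read 4.28 and 11.7 CPM in NPC, against 90.7 and 87.6 CPM in ESC, a log2 fold change of -3.48 (SE 0.41, edgeR adjusted p = 4.02e-04). It had 65 and 180 counts in the NPC libraries, where no other member had more than 15. Its log2 fold change ran between -4.37 and -2.93 over the 16 alternatives, the ends being the fits without NPC 2 and without NPC 1. The summed level of 12 fibroblast markers was 7313 CPM in NPC 1 and 11790 CPM in NPC 2, against 464.2 to 467.4 CPM in ESC; its part in the Smad7 level was not tested.

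**Figure D1:**
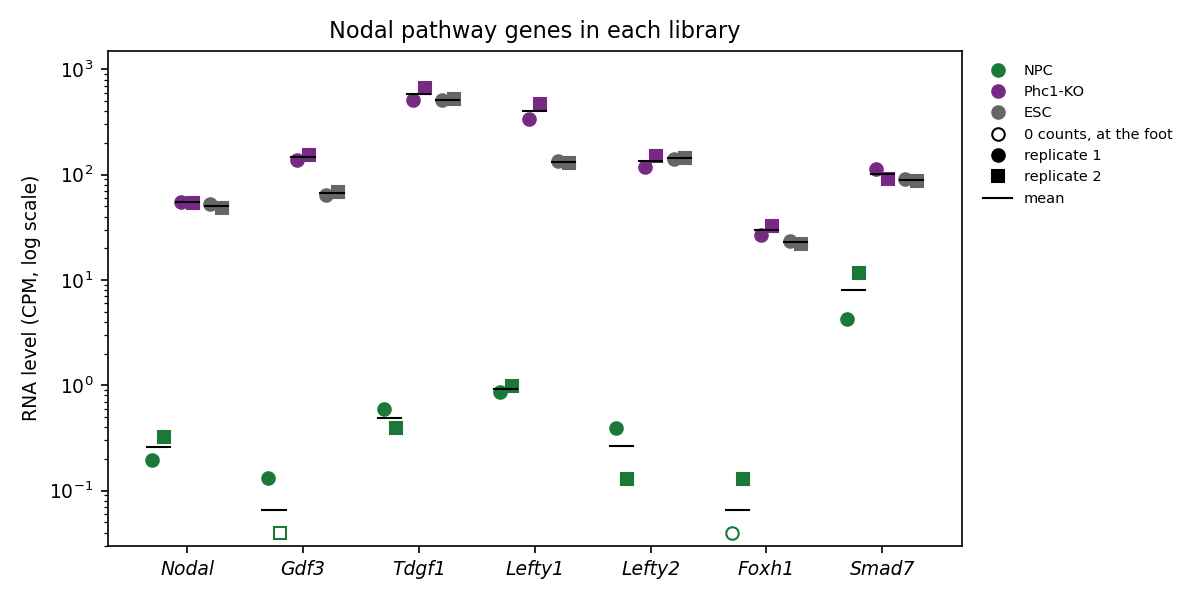
RNA level of each member in each library, in CPM on a log axis; points are libraries, bars are means of 2, and open points are libraries with 0 counts, drawn at the foot of the axis. The NPC points of 6 genes lie under 1 CPM and those of Smad7 at 4.28 and 11.7 CPM. Phc1-KO lies above ESC without overlap for Lefty1 and Gdf3, and by narrower margins for Nodal, Foxh1 and Smad7.

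In the Phc1-KO cells each of the 7 members had at least 511 counts in each library, and 2 of the 7 rose against ESC: Lefty1 by 3.06-fold and Gdf3 by 2.20-fold. By edgeR 0 fell and the other 5 did not pass; 0 were lower at an unadjusted p under 0.05 by edgeR, DESeq2 or limma-voom. Among all genes tested 10.7% passed in this comparison, with 4.91% higher and 5.75% lower. The median log2 fold change was 0.19 over the members and 0.00 over all genes tested.

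Lefty1 read 335.9 and 470.6 CPM in Phc1-KO, against 134.1 and 129.2 CPM in ESC, a log2 fold change of 1.61 (SE 0.18, edgeR adjusted p = 0.00576). Both Phc1-KO libraries stood above both ESC libraries. Its neighbour Lefty2 read 118.8 and 151.2 CPM in Phc1-KO, against 142.2 and 142.9 CPM in ESC, so the ESC libraries lay between those of Phc1-KO. Its log2 fold change was -0.08 (SE 0.19, 95% interval -0.52 to 0.36, edgeR adjusted p = 0.815). The 95% interval for Lefty1, 1.20 to 2.03, did not overlap that of Lefty2, which is not a test of the difference between these genes.

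Within these libraries the antagonists stood in different proportions in Phc1-KO and in ESC. Per kilobase of exon, Lefty1 exceeded Lefty2 by 4.20 and 4.62 times in Phc1-KO, against 1.40 and 1.34 times in ESC. Per window found once in the genome, which scales every library alike, the ratios were 4.59 and 5.05 in Phc1-KO, against 1.53 and 1.47 in ESC. The log2 ratio of their CPM averaged 1.57 ± 0.10 in Phc1-KO and -0.11 ± 0.04 in ESC (SD, n = 2 each), a difference of 1.68; an exact two-sided permutation test gave p = 0.333, the smallest that 2 against 2 libraries allow.

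Gdf3 read 137.6 and 154.6 CPM in Phc1-KO, against 64.1 and 68.5 CPM in ESC, a log2 fold change of 1.14 (SE 0.19, edgeR adjusted p = 0.0174). The groups did not overlap. Nodal, the other ligand, read 55.4 and 53.7 CPM in Phc1-KO, against 52.1 and 47.9 CPM in ESC, with a log2 fold change of 0.13 (95% interval -0.23 to 0.48, edgeR adjusted p = 0.627). Of the ligands, Gdf3 rose and Nodal did not pass, though the Phc1-KO libraries lay above those of ESC for Nodal too.

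The remaining members did not pass. Tdgf1 read 505.6 and 671 CPM in Phc1-KO, against 512 and 520.2 CPM in ESC, with a log2 fold change of 0.19 (95% interval -0.20 to 0.58). Foxh1 read 26.8 and 32.9 CPM in Phc1-KO, against 23.3 and 22.1 CPM in ESC (log2 fold change 0.39, 95% interval -0.20 to 0.99). Smad7 read 112.2 and 90.8 CPM in Phc1-KO, against 90.7 and 87.6 CPM in ESC (log2 fold change 0.19, 95% interval -0.66 to 1.03). Phc1-KO lay above ESC without overlap for Foxh1 and Smad7, in the case of Smad7 by a narrow margin, and the intervals include changes in either direction.

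The calls in Phc1-KO changed with how the ESC pair was counted and with an ESC or Phc1-KO library left out. The reason was not tested. With that pair counted as 1 library, no member passed, at an adjusted p of 0.0566 for Lefty1 and 0.170 for Gdf3 by edgeR, with unchanged log2 fold changes of 1.61 and 1.14. Without ESC 1 the adjusted p was 0.0641 for Lefty1 and 0.206 for Gdf3, and without ESC 2 it was 0.0724 and 0.171. Lefty1 passed without Phc1-KO 1 (adjusted p = 0.0334) or Phc1-KO 2 (adjusted p = 0.0378), and Gdf3 did not (adjusted p = 0.0566 and 0.112). Over all 16 alternatives the log2 fold change stayed between 1.35 and 1.84 for Lefty1 and between 1.05 and 1.23 for Gdf3, with adjusted p from 3.94e-11 to 0.0724 and from 3.28e-08 to 0.206. Markers of other cells moved in the same comparison: 7 of 12 fibroblast markers were higher, with a summed level of 1156 to 1293 CPM in Phc1-KO against 464.2 to 467.4 CPM in ESC and none at 0, and 5 of 7 macrophage markers tested were lower, at 14.4 to 14.8 CPM in Phc1-KO against 36.0 to 36.7 CPM in ESC over the 8 listed. Their part in the changes of Lefty1 and Gdf3 was not tested.

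**Figure D2:**
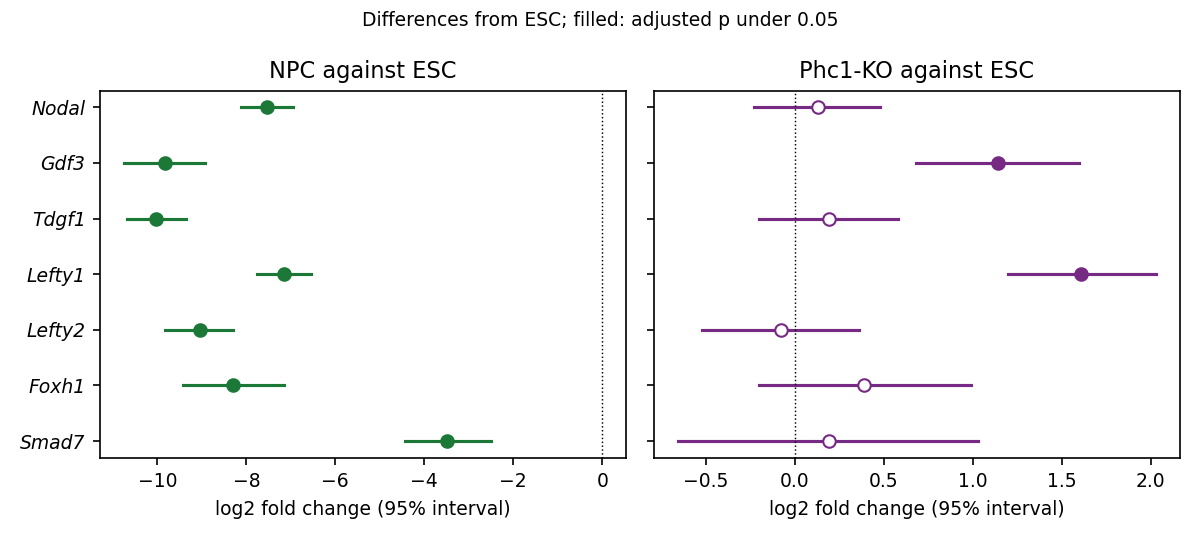
Log2 fold change of each member with its 95% interval, in NPC against ESC (left) and Phc1-KO against ESC (right), on different scales; filled points passed at an adjusted p under 0.05. All 7 intervals lie below 0 in NPC, and in Phc1-KO only those of Lefty1 and Gdf3 lie wholly above it.

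Set against NPC, the Phc1-KO cells were higher for all 7 members, where 64.9% of all genes tested passed, 32.3% higher and 32.7% lower. The NPC and ESC comparisons share libraries with this one, so its values are given for completeness. Log2 fold changes by edgeR ran from 3.67 (SE 0.41, adjusted p = 3.02e-04; 3.12 to 4.57 over the 16 alternatives) for Smad7 to 10.97 (SE 0.38, adjusted p = 5.28e-06) for Gdf3. Gdf3 had 5823 counts over the Phc1-KO libraries and 2 over the NPC libraries, a ratio of 2240 with a 95% counting interval of 620 to 18500. By log2 fold change, all 7 members in Phc1-KO thus lay nearer to ESC than to NPC. Lefty1 and Gdf3 stood above ESC, by 3.06-fold and 2.20-fold.

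Levels were set side by side between genes per kilobase of exon, a measure that understates Lefty1, Lefty2 and Tdgf1, as given above. In Phc1-KO the order by CPM per kilobase was Tdgf1 at 306 ± 60.7, Lefty1 at 229 ± 54.2, Gdf3 at 68.8 ± 5.63, Lefty2 at 51.7 ± 8.76, Nodal at 26.03 ± 0.560, Foxh1 at 22.8 ± 3.30 and Smad7 at 22.4 ± 3.34. In ESC it was Tdgf1 at 268 ± 3.03, Lefty1 at 74.9 ± 1.96, Lefty2 at 54.6 ± 0.196, Gdf3 at 31.2 ± 1.47, Nodal at 23.9 ± 1.43, Smad7 at 19.7 ± 0.480 and Foxh1 at 17.4 ± 0.667 (SD, n = 2 each). On this measure neighbours in the ESC order did not overlap between libraries. In Phc1-KO the libraries of Tdgf1 and Lefty1 overlapped, as did those of Foxh1 and Smad7. Gdf3 stood above Lefty2 in Phc1-KO and below it in ESC. Per kilobase of windows found once in the genome, Gdf3 was at 74.1 ± 6.07 and Lefty2 at 66.1 ± 11.2 in Phc1-KO. That gap is smaller than the SD of Lefty2, so their order in Phc1-KO is not settled. In ESC the values were 33.6 ± 1.58 for Gdf3 and 69.8 ± 0.251 for Lefty2. In NPC only Smad7, at 1.77 ± 1.16, exceeded 1 CPM per kilobase.

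Patterns like those of the members were looked up by the distance over the 6 libraries of log2 CPM centred on each gene's mean, among 11289 genes with a mean of at least 4 CPM, predicted and clone names left out. Nearest to Nodal were Zfp42 (Rex1, a stem cell zinc finger gene) at 0.39, Spint1 at 0.40 and Mir291b at 0.42. Foxh1 had Zfp42 at 0.37, Dppa4 at 0.47 and B4galnt3 at 0.54, followed by Nodal itself at 0.57. Tdgf1 lay nearest to Dppa5a at 0.55, Fgf4 at 0.60 and Lin28a at 0.88. Zfp42, Dppa4, Dppa5a, Fgf4 and Lin28a are known as genes of pluripotent cells.

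The antagonists had different neighbours. Lefty1, higher in Phc1-KO, lay nearest to Zfp936 at 0.55, Slc27a2 at 0.64 and Tex19.1 at 0.77, and Lefty2 to the adhesion gene Epcam at 0.46, Tdrd12 at 0.75 and Trh at 0.80. Lefty2 was 47th among the genes nearest to Lefty1. For Gdf3 the nearest were L1td1 at 1.14, Nr0b1 at 1.16 and Fgf4 at 1.28, and for Smad7 they were Hspbap1 at 0.55, Ly6a at 0.60 and Nup62cl at 0.63. With 2 libraries a group these distances describe 3 levels per gene.

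Of 45 other genes of the pathway, listed by role, 43 were tested. In NPC 20 of the 43 were lower and 12 higher, against 30.9% and 30.4% of all genes, with a median log2 fold change of -0.24. With the ESC pair counted as 1 library 17 were lower and 8 higher. In Phc1-KO against ESC 9 were lower and 1 higher, where 5.75% of all genes were lower, with a median of -0.17. Gdf1 was at 0 counts in every library; its exons lie wholly within Lass1 in the annotation, so reads there cannot be given to either gene.

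Activin ligands and the enzymes that process ligands came first. Inhba, the activin A subunit, was the one pathway gene of this list that passed as higher in Phc1-KO. It read 79.9 and 40.5 CPM in Phc1-KO, against 10.8 and 10.04 CPM in ESC, a log2 fold change of 2.53 (SE 0.43, edgeR adjusted p = 0.0179). It did not pass with the ESC pair counted as 1 library (adjusted p = 0.107), or without Phc1-KO 1 (adjusted p = 0.0748), where the log2 fold change was 1.96, or Phc1-KO 2 (adjusted p = 0.0714), where it was 2.94. In NPC it fell to 1.18 and 3.18 CPM, with a log2 fold change between -3.12 and -1.71 over the 16 alternatives, the ends being the fits without NPC 2 and without NPC 1. The fibroblast marker sums given above were higher than in ESC in both Phc1-KO and NPC, and their part in the Inhba levels was not tested. Inhbb, the activin B subunit, fell in NPC by 2.09 on the log2 scale and Pcsk6, a convertase that cleaves Nodal, by 1.08. Neither passed in Phc1-KO, where they went in opposite directions. Inhbb had a log2 fold change of 1.08 (95% interval 0.02 to 2.14, edgeR adjusted p = 0.164), with both Phc1-KO libraries above those of ESC. Pcsk6 was at -0.45 (95% interval -0.87 to -0.03, edgeR adjusted p = 0.151). The Inhbb libraries differed, at 7.37 and 2.08 CPM in NPC, against 22.8 and 17.3 CPM in ESC, and its log2 fold change ran between -3.26 and -1.44 over the 16 alternatives, the ends being the fits without NPC 1 and without NPC 2.

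Of 4 receptors tested, 3 were lower in NPC and 3 in Phc1-KO by edgeR, where 30.9% and 5.75% of all genes tested were lower. DESeq2 called 2 of these 4 receptors in Phc1-KO. With the ESC pair counted as 1 library, and without Phc1-KO 2, 0 of them passed in Phc1-KO by edgeR, with 3 at an unadjusted p under 0.05 in each case. Acvr1b (Alk4), the type I receptor of Nodal, read 20.5 and 21.3 CPM in Phc1-KO, against 45.8 and 43.8 CPM in ESC, a log2 fold change of -1.10 (SE 0.15, edgeR adjusted p = 0.00943), and changed by -1.43 in NPC. The type II receptor Acvr2b read 17.6 and 13.3 CPM in Phc1-KO, against 30.3 and 29.4 CPM in ESC (-0.95, SE 0.20, edgeR adjusted p = 0.0309), and changed by -3.81 in NPC. Cfc1 (Cryptic), the other mouse EGF-CFC co-receptor, had 2 counts in Phc1-KO and none in NPC, against 27 counts in ESC, a ratio of ESC over Phc1-KO of 16.4 with a 95% counting interval of 4.13 to 143; it was at least 8.44-fold lower in NPC, taking 3 counts over both libraries as the lowest detectable level. Of its exon bases 27.6% overlap Prss40 on the other strand, and whether the counting used strand is unknown here. Acvr2a, the second type II receptor, was higher in NPC by 0.91 and did not pass in Phc1-KO.

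In Phc1-KO 0 of 7 Smad transducers and partners passed by edgeR, DESeq2 or limma-voom, and 1 had an unadjusted p under 0.05 by each of them. In NPC Smad3 rose, reading 172.8 and 206 CPM in NPC, against 49.5 and 49.8 CPM in ESC, a log2 fold change of 1.93 (SE 0.18, edgeR adjusted p = 1.52e-04). Of 7 transducers and partners 4 passed in NPC, and 1 with the ESC pair counted as 1 library. Among all genes tested 61.3% passed in NPC, with 30.4% higher. The TGF-beta branch, which shares Smad2 and Smad3, was higher in NPC for 5 of 6 genes. Tgfbr2, the type II TGF-beta receptor, read 185.1 and 149 CPM in NPC, against 37.99 and 40.9 CPM in ESC (2.08, SE 0.22, edgeR adjusted p = 2.68e-04). Tgfbr3 rose by 3.03 and the ligand Tgfb2 by 2.91, with Tgfb2 at 67.3 and 162 CPM in NPC, against 14.9 and 15.6 CPM in ESC; its log2 fold change ran between 2.15 without NPC 2 and 3.41 without NPC 1. In Phc1-KO 0 of these 6 passed by edgeR and limma-voom and 1 by DESeq2, with 1 at an unadjusted p under 0.05 by each. Of the 12 fibroblast markers 10 were also higher in NPC, and their part was not tested.

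Among other inhibitors, Fst (follistatin), which binds activin, fell in both comparisons: it read 3.62 and 2.53 CPM in NPC and 8.80 and 9.10 CPM in Phc1-KO, against 30.0 and 30.2 CPM in ESC, with log2 fold changes of -3.29 and -1.75 (edgeR adjusted p = 5.48e-05 and 0.00728); in Phc1-KO it did not pass with the ESC pair counted as 1 library (adjusted p = 0.0677) or without Phc1-KO 2 (adjusted p = 0.0699). Fstl3 had 1 count in NPC against 28 in ESC, a ratio of ESC over NPC of 26.2 with a 95% counting interval of 4.34 to 1070; 47.3% of its exon bases overlap Prss57 on the other strand. Of 11 intracellular inhibitors, 4 were lower and 2 higher in NPC, near the 30.9% and 30.4% of all genes tested, and 4 in all passed with the ESC pair counted as 1 library. In Phc1-KO 0 passed by edgeR or DESeq2, with 0 at an unadjusted p under 0.05 by edgeR and 1 by DESeq2. Dact2, which promotes receptor breakdown, was 7.98-fold lower in NPC, and on the log2 scale the co-repressor Tgif1 fell by 2.16 and Skil (SnoN) by 1.74. The log2 fold change of Dact2 was -2.52 without NPC 1 and -3.71 without NPC 2. Cer1, a secreted Nodal antagonist, was higher in NPC than in Phc1-KO, but on 3 counts over the Phc1-KO libraries, and did not pass without NPC 1 or without Phc1-KO 2 (edgeR adjusted p = 0.190 and 0.159), or by DESeq2 (adjusted p = 0.0659).

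Of 7 target genes, 7 were lower in NPC and 5 in Phc1-KO by edgeR, where 30.9% and 5.75% of all genes tested were lower. In NPC 6 of the 7 passed by DESeq2, with the ESC pair counted as 1 library and without Phc1-KO 2. Lower in Phc1-KO were genes of the primitive streak and its derivatives, with Lhx1 reading 0.314 and 0.242 CPM in Phc1-KO, against 6.48 and 6.14 CPM in ESC (-4.47, SE 0.47, edgeR adjusted p = 0.00521), with Gsc at -4.33 and Mixl1 at -3.68. Lhx1, Gsc and Mixl1 did not pass without Phc1-KO 2 (adjusted p = 0.0766, 0.0817 and 0.0508), and without that library 0 of the 43 genes passed in Phc1-KO by edgeR, with 12 at an unadjusted p under 0.05. Counting the ESC libraries as a single one left 4, all lower.

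**Figure D3:**
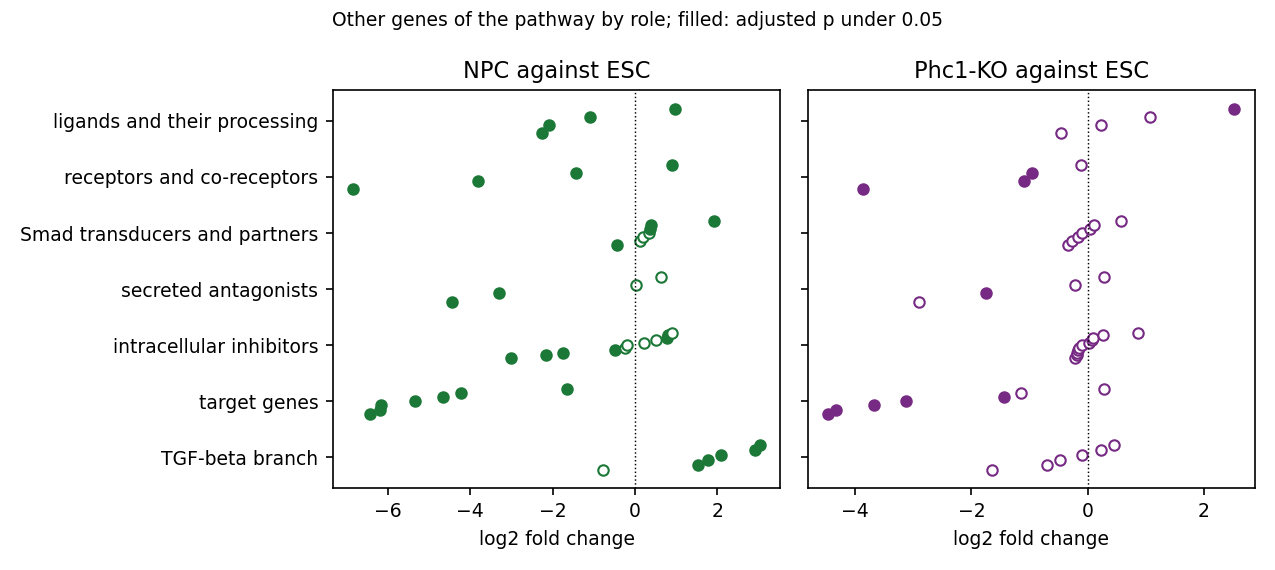
Log2 fold change of the 43 other pathway genes tested, by role, in NPC against ESC (left) and Phc1-KO against ESC (right); each point is a gene and filled points passed at an adjusted p under 0.05. Target genes lie left of 0 in NPC, and in Phc1-KO 9 filled points lie left of 0 and 1 filled point, Inhba, lies right of it.

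Gdf3 lies in a cluster of stem cell genes on chromosome 6, and the gene Phc1 lies 264842 bases away on its low-coordinate side. Within 250 kb of Gdf3, 10 genes were tested, and in Phc1-KO against ESC 1 was higher and 5 were lower, where 10.7% of all genes passed. The higher one was Mfap5, a microfibril gene, at 1.38 (SE 0.30). Lower were Dppa3 (Stella) at -2.63 (SE 0.35), Nanog at -0.83 (SE 0.16), the glucose transporter Slc2a3 at -1.58 (SE 0.17), Foxj2 at -1.11 (SE 0.27) and C3ar1 at -1.98 (SE 0.34). All 5 lie on the high-coordinate side of Gdf3, opposite Phc1. The 6 calls fell to 1 without Phc1-KO 2, and to 1 with the ESC pair counted as 1 library. Of 16 alternatives, Slc2a3 passed under 15, Dppa3 under 13, Nanog under 12, Mfap5 and C3ar1 under 11 each and Foxj2 under 9. Dppa3, the nearest of them at 16323 bases, read 5.76 ± 2.74 CPM in Phc1-KO and 35.8 ± 0.993 CPM in ESC (SD, n = 2 each), so Gdf3 and Dppa3 differed from ESC in opposite directions. In NPC 8 of the 10 were lower than in ESC, where 30.9% of all genes tested were. Foxj2 was higher, and did not pass with the ESC pair counted as 1 library (edgeR adjusted p = 0.0525) or without ESC 2 (adjusted p = 0.0662).

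Near Nodal, Tdgf1 and Smad7, 0 of 5, 11 and 4 genes tested within 250 kb passed in Phc1-KO against ESC by edgeR. Of these, 1, 4 and 1 had an unadjusted p under 0.05, and DESeq2 called 0, 1 and 0. Near Lefty1, Lefty2 and Foxh1, 3 of 15, 4 of 13 and 4 of 26 passed by edgeR, where 10.7% of all genes tested passed. DESeq2 called 3, 4 and 4 there. The regions around Lefty1 and Lefty2 overlap, and each holds the other gene. Fewer passed near these 3 members with the ESC pair counted as 1 library.

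**Figure D4:**
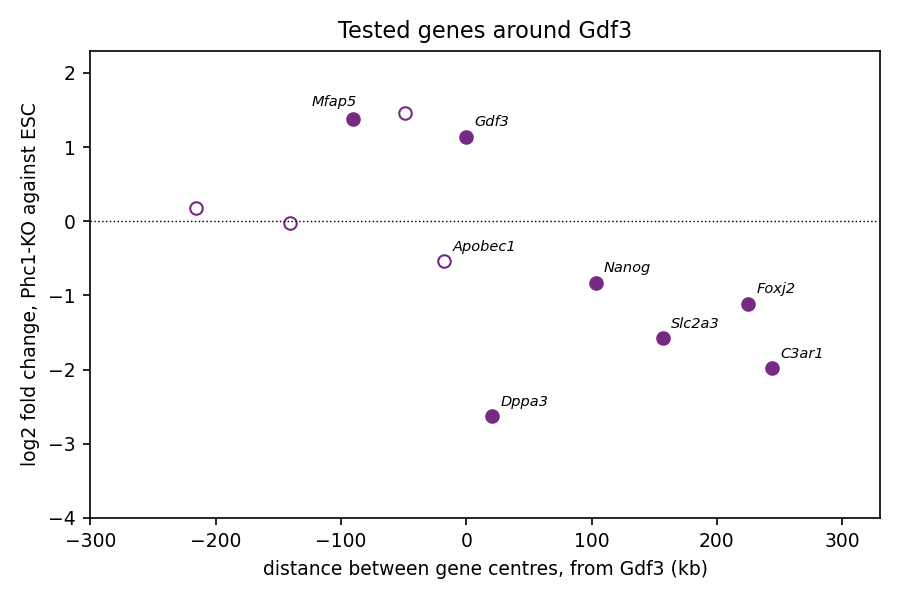
Log2 fold change in Phc1-KO against ESC of Gdf3 and of the genes tested within 250 kb of it, by distance between gene centres in kb; filled points passed at an adjusted p under 0.05. Gdf3 and Mfap5 lie above 0, and Dppa3, Nanog, Slc2a3, Foxj2 and C3ar1 lie below it on the high-coordinate side.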

How the data were processed

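The authors deposited 1 table per library of read counts by Ensembl gene, without normalization. Per the submitters' processing notes, STAR, HTSeq and mm9 were used; their versions and the gene annotation and strandedness used in counting are not stated. The labels describe Ribo-Zero Gold depletion, TruSeq libraries and single-end reads. The closing tallies, which name no gene, were left out. For each read in a gene, 0.661 to 1.09 reads lay outside genes and 1.11 to 1.70 aligned to several places.

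GENCODE M1 (mm9) named 37205 of 37620 genes. All 6 libraries were fitted together with edgeR 4.0.16 in R 4.3.3 (quasi-likelihood F test, TMM scaling, 1 term per group, 3 residual degrees of freedom), after filterByExpr (count at least 10, total at least 15). P values were adjusted by Benjamini-Hochberg over the 17489 genes tested. CPM use TMM-adjusted library sizes; ± is the SD over 2 libraries. SE is the size of a log2 fold change divided by the square root of F. Distances between patterns used log2 CPM with a prior count of 2. Counting intervals are exact and cover counting error only, since the reads carry no molecular identifiers. Nothing says whether the libraries of a group came from separate cultures, so p values measure the spread between these libraries. The fit was tested on simulated data with the same spread per gene in all groups, so the unequal spread of the real pairs was not covered.

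Named were all members, Phc1, per role up to 3 listed genes that passed with at least a 2-fold change, the 3 genes nearest each member and the genes near Gdf3 that passed; others illustrate a count and were named after their values were seen. Members and lists were chosen with earlier results of these data known. Some results are not reported here.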

Additional observations from a re-analysis of the deposited data

How the results depend on the processing

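Alternatives were DESeq2 1.42.0, limma-voom 3.58.1, 3 other scalings, a 1 CPM filter or none, separate fits per pair of groups, a replicate block, the ESC pair counted as 1 library, and each library left out in turn, where a lone library is assumed to vary like the other groups. In NPC against ESC and in Phc1-KO against NPC, all 7 members passed in the same direction under each of the 16. In Phc1-KO against ESC, members called were 2 in the fit of all libraries, 0 with the ESC pair counted as 1 library and 0 to 2 with a library left out; other pathway genes called were 10, against 4 and 0 to 13. Genes called among all tested were 1864, against 145 with the ESC pair counted as 1 library, 92 to 3715 with a library left out and 3899 when only these groups were fitted; the cause was not tested. With a library left out, NPC against ESC gave 7460 to 11149 genes and Phc1-KO against NPC 9671 to 11668, and other pathway genes called were 24 to 34 and 21 to 28. In Phc1-KO against ESC the sign turned for Tdgf1, to -0.03 without Phc1-KO 2 (0.38 without Phc1-KO 1), and for Lefty2, to 0.09 without Phc1-KO 1 (-0.26 without Phc1-KO 2), neither of which passed in any fit. The other scalings moved the median of all genes by less than 0.1 on the log2 scale. Same-numbered libraries did not deviate together (r across genes of 0.0212, 0.0564 and -0.0210 between groups), and with a replicate block the members called were 7, 2 and 7, other pathway genes 30, 10 and 26 and all genes 10424, 1427 and 11061 for NPC over ESC, Phc1-KO over ESC and Phc1-KO over NPC, in that order. Depth limits the NPC values, where 6 members had 28 counts or fewer over both libraries.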
